A study of Mus musculus with 9 samples.

Results

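The small leucine-rich proteoglycans examined here were the 9 genes whose symbols in the deposited gene tables are Lum, Dcn, Bgn, Aspn, Fmod, Ogn, Prelp, Omd and Podn, out of 20634 genes in all. They were selected on their measured CPM in these libraries, with attention to the difference between ifetroban and vehicle in delta-sarcoglycan knockout hearts, so that difference is described here and not tested. RNA was sequenced from the left ventricle of mice on a C57BL/6 background, either wild type or knockout for delta-sarcoglycan, a protein of the dystrophin-associated complex of the muscle membrane whose loss gives muscular dystrophy with cardiomyopathy. From weaning the animals drank water without drug (vehicle) or with ifetroban, a thromboxane-prostanoid receptor antagonist, at 25 mg/kg/day, and all were given running wheels from time to time to bring on the heart disease. Hearts were taken at 6 months of age and perfused with PBS. The groups, named as in the sample titles, were wt-veh (wild type on vehicle, 2 libraries), wt-ife (wild type on ifetroban, 2), dSG-veh (knockout on vehicle, 2) and dSG-ife (knockout on ifetroban, 3).

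Small leucine-rich proteoglycans are secreted proteins built from repeats rich in leucine, most of which carry chondroitin, dermatan or keratan sulfate chains. They bind collagen fibrils and control their width and spacing, and several of them also bind growth factors such as TGF-beta or act on cell surface receptors. In the heart they are made mainly by fibroblasts, and their amount in scar and in fibrotic muscle has been studied widely. Decorin (Dcn), biglycan (Bgn) and asporin (Aspn) form class I. Lumican (Lum), fibromodulin (Fmod), the basement membrane and cartilage protein Prelp and osteomodulin (Omd, also called osteoadherin) belong to class II. Osteoglycin (Ogn, also called mimecan) is of class III, and podocan (Podn) of class V.

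All 9 libraries held 21510263 to 30182955 counts, and levels are given in CPM, counts scaled to a common library size. All 9 members passed the filter on low counts, which left 15549 genes for testing. Nothing in the labels ties the samples of a group to separate animals, so p-values cover only the spread between samples as sequenced. For dSG-ife replicate 1 the title and source name read ifetroban and the treatment entry reads vehicle. It was kept in dSG-ife. Sgcd, the gene of delta-sarcoglycan, was at 8.36 CPM in the library labelled wt-veh replicate 1, at 20.9 to 23.7 CPM in the other wild-type libraries and at 7.30 to 13.3 CPM in the knockouts. The library labelled wt-veh replicate 1 therefore lay inside the knockout range, and since the deposited value covers the whole gene it does not check the labels. A gene's deviation from its mean fell with transcript length in 4 libraries (those labelled wt-veh replicate 1, dSG-veh replicates 1 and 2 and dSG-ife replicate 1, with Spearman's rho across 13051 protein-coding genes of -0.52 to -0.40) and rose with it in the other 5 (0.38 to 0.43). Both dSG-veh libraries were of the first kind and both wt-ife libraries of the other, so the slope is unevenly spread over the comparisons, and values that allow for it are given where they differ. Summed cardiomyocyte markers stood at 54600 to 61600 CPM in wild type, 45900 and 49400 in dSG-veh and 48200 to 54800 in dSG-ife, and the part of this order in the results was not tested.

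Several of the genes are neighbours in the mouse genome (mm10 coordinates of the deposited tables). Aspn (chromosome 13, 49544443 to 49567557), Omd (49582766 to 49592609) and Ogn (49608071 to 49624500) lie in this order on the plus strand with gaps of 15.2 and 15.5 kb, and Ecm2, a relative outside the 9, ends 11.7 kb before Aspn. Dcn (chromosome 10, 97479500 to 97518162, plus strand) lies 47.3 kb before Lum (97565501 to 97572703). Prelp (chromosome 1, 133910304 to 133921414, minus strand) lies 116 kb from Fmod (134037254 to 134048277, plus strand). Bgn lies alone on chromosome X (73483602 to 73495933, plus strand) and Podn on chromosome 4 (108014791 to 108096445, minus strand). Cenpp, on the opposite strand at 0.858 to 2.12 CPM, spans Aspn, Omd and Ogn but shares only 7 exonic bases with Aspn and 0 with the other two. Whether the counting took account of strand is not stated, so reads over shared bases cannot be told apart. Prelp shares 350 exonic bases with the antisense gene Gm15851, which was at 0 to 0.12 CPM. Podn shares 52607 bases of its span, and 0 exonic bases, with Scp2 on the same strand at 154 to 221 CPM, beside 8.62 to 16.6 for Podn.

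The promoters of the 3 neighbours on chromosome 13 are shown with that of Bgn, the gene with the firmest difference between genotypes. Each run is the 250 bases before the RefSeq start of transcription (GRCm38.p6), 5′ to 3′ on the gene's strand, which is plus for all 4. The windows are chr13:49544193-49544442 for Aspn, chr13:49582212-49582461 for Omd, chr13:49607765-49608014 for Ogn and chrX:73483351-73483600 for Bgn. RefSeq starts of Omd and Ogn lie before those of the deposited annotation. Capitals mark matches to TATAAA (the TATA box) or GGAATG (a TEAD site), read on both strands.
Aspn: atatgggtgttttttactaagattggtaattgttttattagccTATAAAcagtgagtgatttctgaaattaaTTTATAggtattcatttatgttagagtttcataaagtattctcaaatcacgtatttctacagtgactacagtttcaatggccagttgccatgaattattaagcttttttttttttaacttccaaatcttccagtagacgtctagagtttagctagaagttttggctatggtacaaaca
Omd: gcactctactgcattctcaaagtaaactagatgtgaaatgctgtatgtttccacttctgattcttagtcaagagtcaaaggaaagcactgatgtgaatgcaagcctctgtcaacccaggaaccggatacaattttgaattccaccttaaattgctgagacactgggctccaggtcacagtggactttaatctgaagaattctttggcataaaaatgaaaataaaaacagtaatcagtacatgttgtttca
Ogn: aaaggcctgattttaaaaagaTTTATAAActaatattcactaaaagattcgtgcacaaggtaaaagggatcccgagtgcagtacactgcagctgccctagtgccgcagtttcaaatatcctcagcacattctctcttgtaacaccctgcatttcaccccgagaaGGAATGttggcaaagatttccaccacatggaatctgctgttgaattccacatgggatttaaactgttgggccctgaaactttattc
Bgn: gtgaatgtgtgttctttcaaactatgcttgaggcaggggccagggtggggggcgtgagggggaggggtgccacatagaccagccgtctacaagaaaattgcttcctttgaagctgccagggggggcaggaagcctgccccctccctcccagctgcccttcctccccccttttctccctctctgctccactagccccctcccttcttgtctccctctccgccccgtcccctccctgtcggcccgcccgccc
TATAAA or its reverse complement occurred in 12.4% of 32851 RefSeq promoter windows of the same length and GGAATG in 12.6%. The Aspn window held TATAAA at 207 and its reverse at 178 bases before the start, and the Ogn window held both overlapping at 229 and 227 bases and GGAATG at 86 bases. No match lay in the Omd or Bgn windows, and TGANTCA (an AP-1 site, in 6.75% of windows) and CAGACA (a SMAD site, in 17.1%) were also searched and matched none of the 4. The share of G and C was 30% for Aspn, 38.4% for Omd and 42% for Ogn, against a median of 52.4% and a range from the 10th to the 90th percentile of 38.8% to 69.2% over all windows, and 64.4% for Bgn. These matches describe letters only. The promoters of Fmod, Prelp and Podn matched none of the 4 motifs. The table held promoters for 7 of the 9 genes.

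Compared per kilobase of transcript, Dcn and Bgn were the most abundant members in every group. In wt-veh the mean levels were 74.2 CPM per kb for Dcn and 71.1 for Bgn, followed by Ogn (29.4), Lum (22.8), Prelp (13.4), Aspn (10.1) and Podn (3.96), with Fmod (0.416) and Omd (0.229) last. All neighbours in that order were separate in both libraries except Fmod and Omd, whose ranges overlapped. In dSG-veh Bgn led at 159 CPM per kb over Dcn at 107, and Ogn (39.6) and Lum (37.4) overlapped, as did Podn (3.41) and Fmod (2.24). Bgn also led in wt-ife (78.9 against 70.2 for Dcn) and in dSG-ife (112 against 79.2). The order of Dcn and Bgn rests on the longest transcript of each, 4692 bases for Dcn and 2666 for Bgn. In CPM, without division by length, Dcn was above Bgn in every library. The ratio of Bgn to Dcn per kb was 0.926, 0.994, 1.26 and 1 in the wild-type libraries and 1.32, 1.63, 1.38, 1.35 and 1.49 in the knockouts. Each knockout library thus had a ratio above that of each wild-type library.

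Among class I, Bgn, which binds collagen and also forms a link with the sarcoglycans at the muscle membrane, was the gene with the largest separation between genotypes among the abundant members. It stood at 189 and 191 CPM in wt-veh, 225 and 195 in wt-ife, 367 and 482 in dSG-veh, and 269, 275 and 349 in dSG-ife. Every knockout library lay above every wild-type library. Dcn, which binds fibrillar collagen and TGF-beta, stood at 359 and 338 CPM in wt-veh, 315 and 343 in wt-ife, 489 and 520 in dSG-veh, and 344, 359 and 412 in dSG-ife. Its dSG-veh libraries were the highest, while the dSG-ife libraries ran from inside the wild-type range to above it. Aspn, an inhibitor of TGF-beta signalling, stood at 25.6 and 21.6 CPM in wt-veh, 25.6 and 22.8 in wt-ife, 34.7 and 39.6 in dSG-veh, and 21.0, 19.5 and 28.4 in dSG-ife. The dSG-veh libraries of Aspn lay above all others.

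In class II, Lum, which sets the thickness and spacing of collagen fibrils, stood at 61.0 and 50.7 CPM in wt-veh, 61.3 and 49.0 in wt-ife, 84.2 and 99.0 in dSG-veh, and 55.4, 55.7 and 61.8 in dSG-ife. The dSG-veh pair was above all others, and dSG-ife lay inside or just above the wild-type range. Prelp, an anchor between basement membrane and connective tissue, was at 44.2 and 52.7 CPM in wt-veh, 54.6 and 61.3 in wt-ife, 66.9 and 80.5 in dSG-veh, and 41.7, 56.3 and 72.0 in dSG-ife. Here the dSG-ife libraries spread over most of the range of the other groups. Fmod, which competes with Lum for sites on collagen, was the most variable, at 0.205 and 2.39 CPM in wt-veh, 0.686 and 1.54 in wt-ife, 2.81 and 11.2 in dSG-veh, and 0.562, 1.75 and 4.04 in dSG-ife. It rested on 4 to 278 counts per library, and its dSG-veh and dSG-ife libraries overlapped. Omd, best known from bone, was at 0.462 and 0.567 CPM in wt-veh, 0.404 and 0.708 in wt-ife, 0.835 and 1.61 in dSG-veh, and 0.515, 0.477 and 0.888 in dSG-ife, from 9 to 40 counts. So few counts limit its precision.

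Ogn, a secreted proteoglycan of connective tissue first described in bone, was at 69.7 and 81.4 CPM in wt-veh, 81.0 and 85.3 in wt-ife, 95.8 and 107 in dSG-veh, and 60.3, 68.4 and 80.6 in dSG-ife. Its dSG-ife libraries were all below wt-ife, the opposite of the order on vehicle. Podn, which has been linked to smooth muscle cell growth, was at 15.1 and 13.7 CPM in wt-veh, 14.3 and 8.62 in wt-ife, 12.2 and 12.6 in dSG-veh, and 10.4, 12.8 and 16.6 in dSG-ife. It was the only member not highest in a dSG-veh library. For the other 8 the highest library was dSG-veh replicate 2, and dSG-ife replicate 3 was the highest of its group for all 9.

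**Figure D1:**
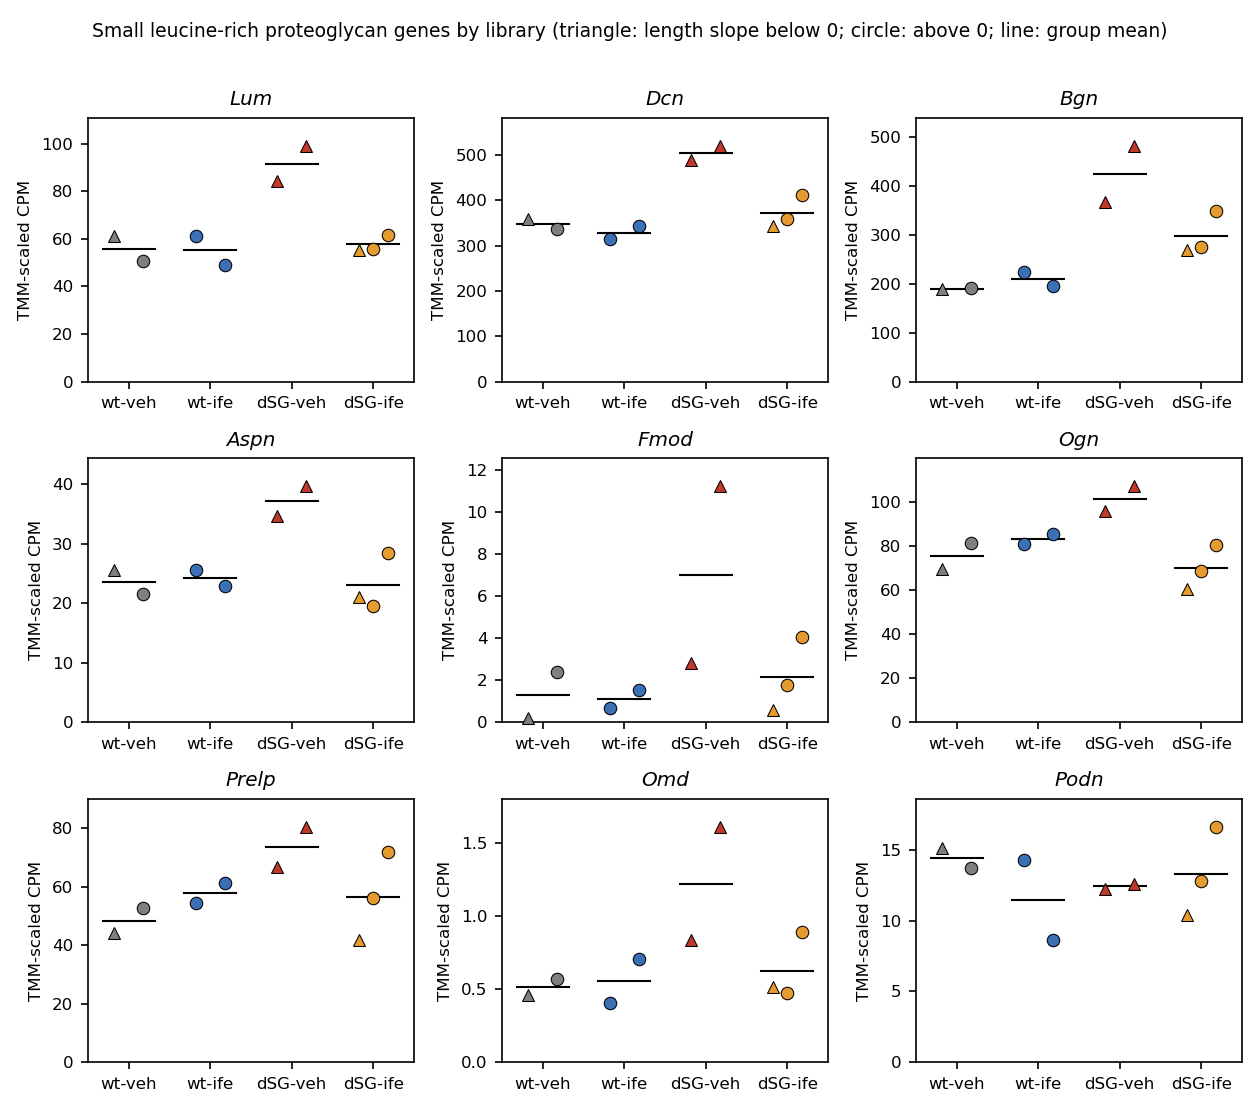
CPM of each proteoglycan gene (linear axis per panel) in every library by group, with bars at the group means; triangles mark libraries whose length slope is negative and circles those where it is positive. Bgn separates all 5 knockout libraries (269 to 482 CPM) from all 4 wild-type ones (189 to 225 CPM), and Podn shows no such order.

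Genotype on vehicle compared dSG-veh with wt-veh. No member passed the edgeR test at an adjusted p under 0.05, although 8 of the 9 were higher in every dSG-veh library than in every wt-veh library and Podn was lower. Among all genes tested 18.3% were higher without overlap, 17.6% lower, and 0.0515% were called in either direction. The log2 differences were 1.16 for Bgn (SE 0.18, edgeR adjusted p = 0.0822), 0.71 for Lum (0.16, adjusted p = 0.238), 0.53 for Dcn (0.14, adjusted p = 0.292), 0.65 for Aspn, 0.60 for Prelp and 0.43 for Ogn. The low-count genes Fmod (2.37, SE 1.01) and Omd (1.23, SE 0.52) had wide errors, and Podn was at -0.21 (SE 0.26). Without dSG-veh replicate 2 Fmod was at 1.07 and Omd at 0.69, without wt-veh replicate 2 Fmod was at 5.05, and with the length slope as a term it was at 4.40. The 8 higher members also had an unadjusted p under 0.05, against 5.21% of all genes in that direction. Their median over all 9 was 0.65, against -0.02 over all genes tested. With the DESeq2 Wald test 3 members passed (Bgn at an adjusted p of 4.37e-06, Lum at 0.0272 and Dcn at 0.0428, beside 0.926% of all genes), and with limma-voom 0 did. With the length slope as a term Bgn (1.23, edgeR adjusted p = 0.0280), Dcn (0.56, adjusted p = 0.0411) and Ogn (0.56, adjusted p = 0.0437) passed, beside 0.759% of all genes. Within the negative-slope libraries, which hold 1 wild-type library whose spread is assumed to be like that of the others, Bgn (1.18, edgeR adjusted p = 0.0217) and Prelp (0.74, adjusted p = 0.0368) passed, beside 1.6% of all genes. The dSG-veh libraries also entered the comparison on which the genes were selected, so high values in them are favoured by the choice of genes.

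Under ifetroban, dSG-ife against wt-ife, 0 members passed the edgeR test (0.0386% of all genes were called), DESeq2 and limma-voom also called 0, and 1 member, Bgn, had an unadjusted p under 0.05, as did 9.36% of all genes. Bgn was higher by 0.50 (SE 0.17, edgeR adjusted p = 0.351) and Dcn by 0.17, both without overlap, as were 14% of all genes. Ogn was lower by a log2 difference of -0.25 (SE 0.15, edgeR adjusted p = 0.672) without overlap, as were 15% of all genes. The value of Fmod, 0.94 (SE 0.98), was the largest of the 9, but its libraries overlapped and it was 0.12 without dSG-ife replicate 3. Lum (0.06), Aspn (-0.08) and Prelp (-0.03) lay close to 0, and the median over the 9 was 0.17. The dSG-ife libraries also entered the comparison on which the genes were selected, so low values in them are favoured by the choice of genes.

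The pair of genotype comparisons can be joined in a model with an additive treatment term, which sets the 5 dSG libraries against the 4 wild-type ones. This model assumes that the genotype difference is alike on both treatments. On vehicle and under ifetroban it was 1.16 and 0.50 for Bgn, 0.71 and 0.06 for Lum and 0.43 and -0.25 for Ogn. For Podn it was -0.21 and 0.22. Bgn rose by 0.80 on the log2 scale (SE 0.15, 1.74-fold, edgeR adjusted p = 0.0258) and was the only member called, while 2.06% of all genes were called higher and 4.62% were higher without overlap. An unadjusted p under 0.05 was reached by 4 members (Bgn, Dcn, Lum and Fmod), against 9.31% of all genes in that direction. Both dSG groups also entered the comparison on which the genes were selected, so the p-values of this model are not independent of that choice. Dcn (0.34, SE 0.10, edgeR adjusted p = 0.124), Lum (0.36, adjusted p = 0.253), Fmod (1.64, adjusted p = 0.287) and Omd (0.67, adjusted p = 0.410) did not pass, and Ogn (0.05) and Podn (0.02) were near 0. DESeq2, which called 5.76% of all genes, also called Dcn (adjusted p = 0.0337) and limma-voom called Bgn alone. The Bgn call was lost with the length slope as a term (adjusted p = 0.0818) and on leaving out wt-veh replicate 2 (0.0731), wt-ife replicate 2 (0.102), dSG-veh replicate 1 (0.0837) or dSG-ife replicate 3 (0.0509), with an estimate of 0.73 to 0.83 in these fits.

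In wild type, ifetroban against vehicle, 0 members passed by edgeR (0% of all genes were called), 0 had an unadjusted p under 0.05 (2.25% of all genes did), and DESeq2 and limma-voom called 0. The log2 differences ran from -0.33 for Podn to 0.26 for Prelp with edgeR adjusted p between 0.881 and 0.983. Bgn (0.15) and Prelp were higher without overlap, as were 17.6% of all genes. With 2 libraries a group this does not show that ifetroban left the genes as they were.

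The comparison of ifetroban with vehicle in the knockout chose the members, and the following values are a description only. It shares the dSG-veh libraries with genotype on vehicle and the dSG-ife libraries with genotype under ifetroban, so these values are not separate evidence. In log2 units the differences were -0.67 for Lum (0.629 of the vehicle level), -0.44 for Dcn (0.737), -0.51 for Bgn (0.701), -0.69 for Aspn (0.618), -0.54 for Ogn (0.688) and -0.38 for Prelp (0.769). Fmod was at -1.71 (SE 0.84), Omd at -0.96 and Podn at 0.10. In 5 members (Lum, Dcn, Bgn, Aspn and Ogn) every dSG-ife library was below every dSG-veh library, beside 9.76% of all genes, and in the other 4 the libraries overlapped. A fitted difference below 0 was found for 8 of the 9, beside 48.8% of all genes. The median of the 9 was -0.54, against 0.01 for all genes. Counting dSG-ife replicate 1 as vehicle, as its treatment entry reads, gave a median of -0.26, and within the libraries of negative slope alone (dSG-veh replicates 1 and 2 against dSG-ife replicate 1) it was -0.75, with Fmod at -3.62, Prelp at -0.82 and Podn at -0.25. Without dSG-veh replicate 2, the highest library of most members, Fmod was at -0.40, Bgn at -0.30 and Omd at -0.42. Podn, the exception, was at -0.08 without dSG-ife replicate 3 and at -0.05 with the slope as a term.

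**Figure D2:**
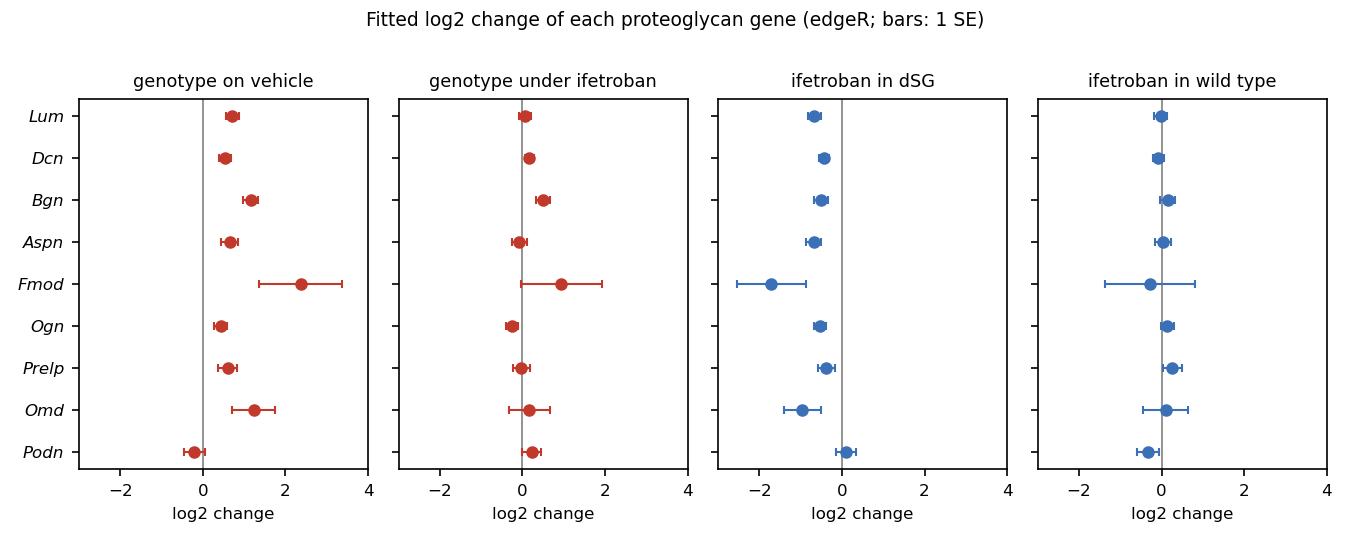
Log2 difference of each proteoglycan gene with its standard error in each comparison; the ifetroban comparison in the knockout is the one used to choose the genes. For genotype on vehicle all but Podn (-0.21) lie above 0, and for ifetroban in the knockout all but Podn (0.10) lie below 0, from -1.71 to -0.38.

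Summed over the 9, the proteoglycans made up 763 and 751 CPM in wt-veh, 778 and 768 in wt-ife, 1150 and 1350 in dSG-veh and 804, 849 and 1030 in dSG-ife. All dSG libraries lay above all wild-type ones. The sum of fibroblast markers was 1440 and 1730 CPM in wt-veh, 1630 and 1780 in wt-ife, 2250 and 2420 in dSG-veh and 1730, 2110 and 2550 in dSG-ife. Relative to that sum the proteoglycans were 53% and 43.4% in wt-veh, 47.7% and 43% in wt-ife, 51.3% and 55.9% in dSG-veh and 46.5%, 40.2% and 40.2% in dSG-ife. Relative to a sum of fibrillar and other collagens they were 147% and 103%, 93.3% and 112%, 96.2% and 104%, and 85.4%, 68.8% and 79.8% in the same order. Since the 9 were selected with attention to ifetroban in the knockout, low shares in dSG-ife are favoured by that choice. Gsn alone gave 836 to 1300 CPM of the fibroblast sum, and Col1a1, Col1a2 and Col3a1 are in both sums. In bulk tissue fewer fibroblasts and less RNA per fibroblast cannot be told apart. Markers of activated fibroblasts summed to 80.1 and 83.9 CPM in wt-veh, 117 and 113 in wt-ife, 360 and 523 in dSG-veh and 230, 270 and 349 in dSG-ife, macrophage markers to 264 to 369 in wild type, 551 and 621 in dSG-veh and 560 to 606 in dSG-ife, and atrial markers to 203 to 274, 864 and 906, and 350 to 707 in these 3 sets. The atrial sum is nearly all Nppa (202 to 905 CPM), a gene that stressed ventricle also expresses, while Myl7, Bmp10 and Myl4 were at most 0.222, 0.291 and 1.59 CPM. Of the 11 markers of valve, tendon or cartilage 8 were in the files, and their sum was 9.29 to 15.1 CPM in wild type, 32.5 and 54.0 in dSG-veh and 19.5 to 36.1 in dSG-ife, with Comp also in the activated list and Chad and Acan at most 0.125 and 0.404 CPM. Their part in the proteoglycan values was not tested.

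**Figure D3:**
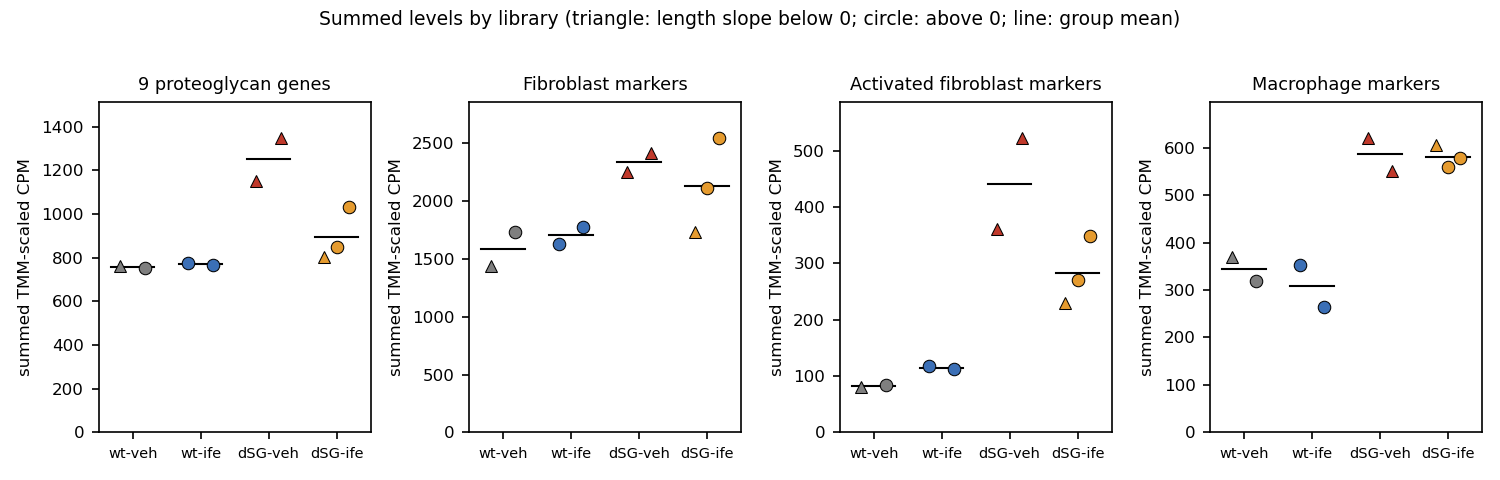
Summed CPM of the 9 proteoglycan genes beside the sums of fibroblast, activated fibroblast and macrophage markers in each library. The proteoglycan sum is 751 to 778 CPM in wild type, 1150 and 1350 in dSG-veh and 804 to 1030 in dSG-ife.

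Across the 9 libraries the log2 levels of the 8 members other than Podn followed each other, with Pearson's r of 0.53 to 0.93 (median 0.77) over their 28 pairs. The 8 pairs with Podn had r between -0.06 and 0.22. The closest pair was Lum and Aspn (0.93), then Lum and Dcn, neighbours on chromosome 10 (0.90), and Fmod and Prelp, neighbours on chromosome 1 (0.90). On chromosome 13 r was 0.82 for Aspn and Ogn, 0.79 for Aspn and Omd and 0.78 for Ogn and Omd, all near the median of the 28 pairs. The correlations of all pairs share the libraries, their depth and their groups, and no p is given. The genes were also selected on their levels in these libraries, so a shared pattern is favoured by that choice. Among 12097 other genes, those closest to the mean of the 9 were Mxra8 (r = 0.958), the Wnt antagonist Sfrp1 (0.950), Ssc5d (0.945), the gelatinase Mmp2 (0.939) and Mfap4 (0.939), a protein of elastic fibres. The closest single gene was Postn (periostin, a secreted matrix protein) for Bgn at 0.995 and Dpt (dermatopontin, also of the matrix) for Dcn at 0.972. It was Thnsl2 for Aspn (0.950), Sema3d for Fmod (0.988), Entpd2 for Ogn (0.980), Antxr1 for Prelp (0.972), Sft2d3 for Omd (0.941) and N4bp2l1 for Podn (0.959).

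**Figure D4:**
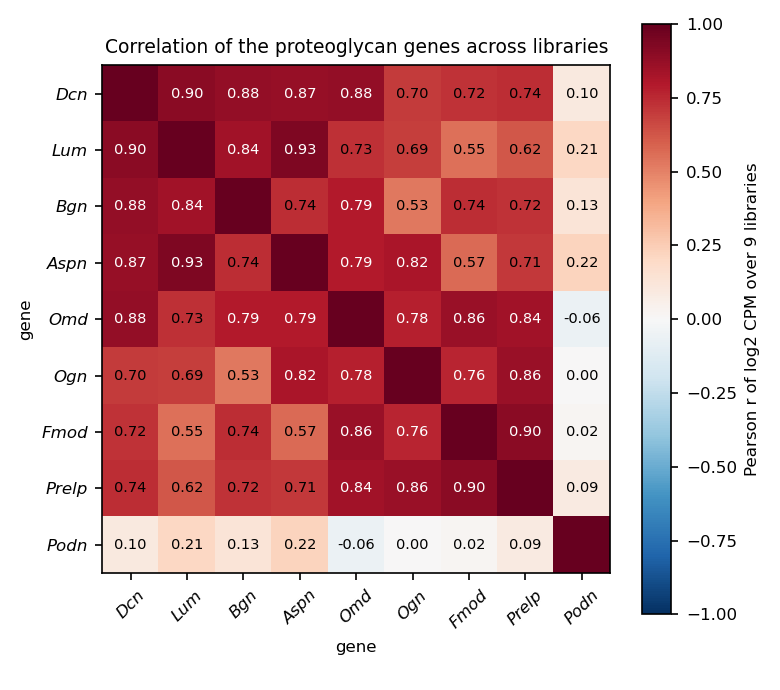
Pearson's r between the log2 CPM of each pair of proteoglycan genes over the 9 libraries. The 28 pairs without Podn lie between 0.53 and 0.93, and the 8 pairs with Podn between -0.06 and 0.22.

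Other genes of the same biology were followed by counts over lists, with genotype over both treatments as the comparison in which calls were made. In genotype on vehicle, genotype under ifetroban and ifetroban in wild type, 0 genes of these lists were called by edgeR, where 0.0515%, 0.0386% and 0% of all genes were. In the separate list of activated fibroblast markers, 4 of 10 were called higher for genotype on vehicle (Postn, Thbs4, Ltbp2 and Lox). Under ifetroban 1 of them was called higher between genotypes, Lox, and for ifetroban in wild type 0 were. Over both treatments, of 3 other small leucine-rich proteoglycans tested (of 6 in the files), 1 rose. It was Tsku, which binds several growth factors (log2 0.90, SE 0.14, edgeR adjusted p = 0.0113), while Ecm2 stood at -0.09 and Nyx at -0.35. Of 11 collagens 4 rose, beside 2.06% of all genes tested, among them Col1a1 (0.91, adjusted p = 0.00901) and Col3a1 (1.16, adjusted p = 0.00968), and the list's median was 0.72. That median was 0.95 for genotype on vehicle and, for ifetroban in the knockout, -0.17, beside -0.54 for the 9 proteoglycans. The 9 were selected with attention to ifetroban in the knockout, so a larger fall in them is favoured by that choice. Of 20 other proteoglycans 3 rose, Vcan (versican, 0.92, adjusted p = 0.00593), Prg4 (lubricin, 2.01, adjusted p = 0.0112) and Cd44 (the hyaluronan receptor, 1.00, adjusted p = 0.0217).

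For genotype over both treatments 2.06% of all genes tested were called higher. Among the partners and enzymes, 2 of 7 growth factors tested rose, Ctgf (1.38, edgeR adjusted p = 0.00154) and Tgfb2 (1.16, adjusted p = 0.00167), both regulators of matrix production. Of 11 receptors 2 rose, Tlr2 (0.93, adjusted p = 0.0233), an innate immune receptor that biglycan can activate, and its co-receptor Cd14 (1.24, adjusted p = 0.0327). Of 25 genes of glycosaminoglycan synthesis 3 rose: Ugdh (0.59, adjusted p = 0.0274), which makes the sugar donor UDP-glucuronate, the chondroitin polymerase subunit Chpf (0.49, adjusted p = 0.0337) and the dermatan epimerase Dse (0.56, adjusted p = 0.0353). Of 8 genes of keratan sulfate synthesis 1 rose, B3gnt7 (3.33, adjusted p = 0.0397), whose level was only 0 to 0.565 CPM. Of 14 matrix proteases 2 rose, Mmp3 (1.71, adjusted p = 0.00664) and the macrophage elastase Mmp12 (2.21, adjusted p = 0.0217). Of 13 membrane partners of biglycan, the sarcoglycans among them, 0 were called, with a median of -0.23 and the smallest p for Sgcd (-0.90, adjusted p = 0.101) and Sgca (-0.24, adjusted p = 0.212). In none of these lists was a gene called lower in this comparison.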

How the data were processed

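The deposited values are expected counts per gene in 9 left ventricle libraries, and 28.2% of them are not whole numbers. Their totals ran from 21510263 to 30182955, so they were not scaled to a common total. Per the submitters' processing notes the tools were bcl2fastq, STAR and Partek with build mm10, and how reads were counted is not stated. Here the authors' expected counts were rounded, filtered with filterByExpr (minimum count 10, 15549 genes left) and scaled with TMM. Genotype and treatment were compared with the quasi-likelihood test of edgeR 4.0.16 in R 4.3.3 (robust, common biological coefficient of variation 0.176), with a 4-group model and an additive model, adjusted by Benjamini-Hochberg over all genes tested at 0.05. DESeq2 1.42.0 and limma 3.58.1 were alternatives, with other filters, DESeq2 size factors, only the groups compared, a replicate block, the length slope as a term or one of its sets alone, dSG-ife replicate 1 counted as vehicle, and each library left out. The fits were checked on simulated data. Samples were grouped by title. Coordinates had 1 subtracted from the end, since 15571 of 19704 symbols shared with GENCODE M21 then matched it exactly. Transcript length was that of the longest GENCODE M21 transcript. Genes were named by a rule: every member, up to 3 called genes per list (or 2 with the smallest p), and the genes closest in pattern (log2 CPM with prior count 2), of which that for Lum is not reported here. The members, lists and rule were chosen with earlier results of these data known.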

Additional observations from a re-analysis of the deposited data

Results flagged for a closer look

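For Bgn the fitted log2 difference between ifetroban and vehicle was -0.51 in the knockout and 0.15 in wild type. Every dSG-ife library was below every dSG-veh library, beside 9.76% of all genes, and every wt-ife library above every wt-veh library, beside 17.6%. In wild type the nearest libraries were at 191 CPM (wt-veh replicate 2) and 195 CPM (wt-ife replicate 2). The wild-type value had an SE of 0.18 and was 0.04 without wt-ife replicate 1. The contrast between the genotypes was not tested, since the knockout comparison chose the genes, and it rests on 2 or 3 libraries a group.

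For Ogn the log2 difference between knockout and wild type was 0.43 on vehicle and -0.25 under ifetroban, with no overlap of libraries in either. Of all genes 18.3% were higher without overlap on vehicle and 15% lower without overlap under ifetroban. The nearest libraries under ifetroban were at 80.6 CPM (dSG-ife replicate 3) and 81.0 CPM (wt-ife replicate 1). The contrast between the treatments was not tested, since it holds the knockout comparison that chose the genes. That choice favours high dSG-veh and low dSG-ife values. Neither value passed the threshold on its own.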

How the results depend on the processing

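For genotype on vehicle the 8 higher members and the lower Podn kept their sign under every alternative in which they were tested. The number of members called, 0 in the fit reported, was 3 with the DESeq2 Wald test, 1 with no low-count filter, 2 with the replicate block (Bgn and Fmod), 3 with the length slope as a term and 2 within the negative-slope libraries, where genes called overall were 144, 18, 56, 118 and 247 against 8. Same-numbered samples had correlations of their deviations from -0.06 to 0.50. Samples with unlike numbers were not compared, so whether the numbers pair the samples was not settled. For genotype over both treatments the count of 1 became 2 with DESeq2 and 0 with the slope as a term, and 0 to 1 when each library was left out. Bgn was called in 5 of the 9 fits that left out a library, with log2 differences of 0.67 to 0.92. Genes called overall were 51 to 475 in those fits, 896 with DESeq2 and 550 with the replicate block. Within a slope set the model of genotype over both treatments reduces to genotype on vehicle (negative slope) or under ifetroban (positive slope), and it was not run separately. For ifetroban in the knockout the median of the 9 ranged from -0.75 to -0.26 under 19 alternatives and was -0.69 with the slope as a term. Prelp turned to 0.02 with dSG-ife replicate 1 counted as vehicle, and Podn to -0.25 within the negative-slope libraries, -0.05 with the slope as a term, -0.08 with the replicate block and -0.08 without dSG-ife replicate 3. Some values changed sign. Under ifetroban, genotype values turned from 0.94 to -0.03 for Fmod and from 0.17 to -0.15 for Omd with the replicate block, and Prelp was 0.15 with dSG-ife replicate 1 counted as vehicle, 0.10 with the slope as a term and 0.16 within the positive-slope libraries. For ifetroban in wild type, Lum was 0.02 with the slope as a term and 0.11 within the positive-slope libraries, Omd was -0.05 and -0.04 there, and Fmod was 0.34 with limma-voom and 0.00 with the replicate block. Podn for genotype over both treatments was -0.08 with the replicate block. On leaving out each library, genotype under ifetroban ranged from -0.09 to 0.23 for Lum, -0.24 to 0.05 for Aspn, -0.23 to 0.15 for Prelp, -0.18 to 0.62 for Omd and -0.10 to 0.62 for Podn. Ifetroban in wild type ranged from -0.19 to 0.14 for Lum, -0.08 to 0.15 for Aspn, -1.12 to 2.41 for Fmod and -0.35 to 0.45 for Omd. Genotype over both treatments ranged from -0.04 to 0.14 for Ogn and -0.16 to 0.13 for Podn. The cause was not tested. Fmod and Omd are limited by their counts.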
